A study of Mus musculus with 6 samples.

Results

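The genes described here are 35 genes that fold, modify or discard proteins in the endoplasmic reticulum (ER). They were chosen by name and comprise ER chaperones, protein disulfide isomerases, components of ER-associated degradation (ERAD) and of the protein-conducting channel, and members of the ATF6 and XBP1 branches of the unfolded protein response. All 35 were found among the 26437 genes of the expression table. Expression was measured by poly(A)-selected, directional RNA-seq in E10 mouse eye tissue, which is the frontal region of the head with the optic vesicles, the frontonasal region and some adjacent forebrain. 3 libraries came from wild-type (WT) embryos and 3 from *Rdh10*-/- (*Rdh10* KO) embryos, each library from a pool of 3 embryos. *Rdh10* encodes retinol dehydrogenase-10, which carries out the first step of retinoic acid synthesis, and the mutation is carried by the whole embryo and not only by the eye. The *Rdh10* KO embryos came from timed matings of heterozygous mice, and the strain is a mixed, outbred background of Black Swiss and C57BL/6. The comparison asks how these ER genes differ in eye tissue that cannot make retinoic acid.

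Values are normalized counts, that is, whole reads per gene divided by 1 size factor per library, and they are not divided by gene length. The libraries held 16392777 to 27101025 reads on genes. An adjusted p under 0.05 in limma counted as a call, lower or higher, and log2 fold changes are *Rdh10* KO minus WT, with their standard error (SE). *Rdh10* itself measured 399, 342 and 381 normalized counts in WT replicates 1 to 3 and 183, 142 and 181 in *Rdh10* KO replicates 1 to 3. The *Rdh10* KO libraries therefore held 45.1% of the WT mean (log2 fold change -1.16, SE 0.13, adjusted p = 7.35e-05), so transcript of the targeted gene remained but at a lower level in every mutant library.

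Proteins that are secreted or inserted into membranes enter the ER through the Sec61 channel, fold there with the help of chaperones and disulfide isomerases, and are sent to the proteasome by ERAD when folding fails. The chaperone BiP, encoded by *Hspa5*, binds unfolded chains and also holds the stress sensors of the ER in their inactive state. When unfolded proteins accumulate, the sensors ATF6, IRE1 and PERK start the unfolded protein response. Cleaved ATF6, with NF-Y, acts on ER stress response elements (ERSE) in promoters, and XBP1, whose mRNA is spliced by IRE1, acts on related elements, which raises the transcription of chaperone and ERAD genes together. Embryonic craniofacial tissue lays down extracellular matrix, and collagen is among the substrates that depend on this machinery.

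As a list, the 35 genes did not move in 1 direction. 6 genes decreased in *Rdh10* KO eye tissue (*Dnajb11*, *Creld2*, *Sec61b*, *Manf*, *Hspa5* and *Pdia6*), 5 increased (*Herpud1*, *Sil1*, *P4hb*, *Sel1l* and *Canx*), and 24 did not pass the test. The decreased genes make up 17.1% of the list and the increased genes 14.3%. Of all 22921 genes tested, 9.12% were called decreased and 10.3% increased. The ER genes are abundant, with 30 of 35 at a mean of at least 500 normalized counts, and among the 7356 genes at or above that level 21.1% were called decreased and 18.9% increased. The list's shares thus lay between those of all genes and those of abundant genes and are not a result about the list. *Manf* and *Sdf2l1* entered the list because the study had picked them from these same libraries, so their direction is not independent evidence.

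The changes were small. No member passed the test with a log2 fold change beyond 0.85 in either direction, against 0.886% of all genes lower and 2.41% higher past the same limit, and no member lay beyond 0.85 at any p. Without a limit on size, limma gave 8 members lower and 7 higher at an unadjusted p under 0.05. All genes were not counted at that threshold in this fit, so these counts are not a result about the list. The edgeR and DESeq2 tests on the recovered reads also placed 0 members past 0.85. *Herpud1* alone passed it when *Rdh10* KO replicate 1 or WT replicate 1 was left out (log2 fold change 0.88 at most). For the members the median was 0.01 on the log2 scale, beside 0.00 (0.0036) for all genes tested and -0.03 for genes with a mean of at least 500. 17 members had a negative and 18 a positive log2 fold change.

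The WT and *Rdh10* KO libraries did not overlap in 15 members, of which 8 (22.9%) were lower and 7 (20%) higher in the mutant. Over all genes tested these shares were 17.0% and 17.6%, and over genes with a mean of at least 500 they were 31.9% and 26.2%. For each of the 15, the exact two-sided permutation test gave p = 0.1, the smallest that 3 libraries against 3 allow. The 35 genes took 0.80% ± 0.01 (SD, n = 3) of all normalized counts in WT and 0.80% ± 0.04 in *Rdh10* KO. Within this sum the 6 decreased genes went from 0.206% to 0.171% and the 5 increased genes from 0.129% to 0.164%. In tissue of several cell types, fewer cells of a type and less RNA per cell cannot be told apart.

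**Figure D1:**
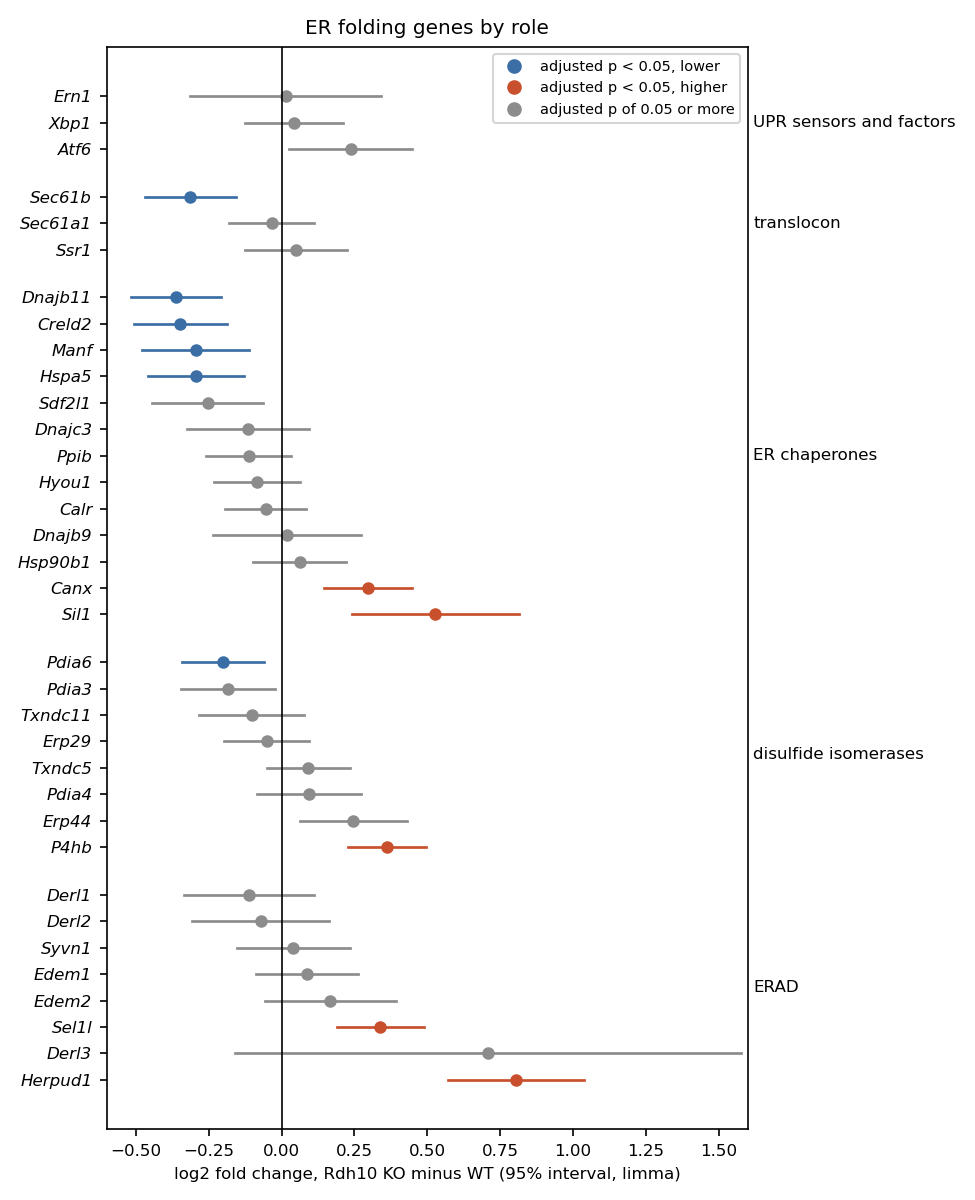
Log2 fold change (*Rdh10* KO minus WT, x axis) of each of the 35 ER genes, grouped by role, with 95% intervals from limma. Blue points are the 6 genes called decreased, orange points the 5 called increased, and grey points the 24 that did not pass the test, which lie on both sides of 0.

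*Rdh10* KO replicate 3 stood low for these genes. It was the lowest of the 6 libraries in 18 of 35 members, which was not counted over other genes, so this count is not a result about the list. *Rdh10* KO replicate 3 was the lowest *Rdh10* KO library in 21 members (60%), compared with 42.3% of genes with a mean of at least 500. Relative to the WT mean, the members' median lay at -0.02, 0.01 and 0.01 on the log2 scale in WT replicates 1 to 3 and at 0.03, 0.02 and -0.10 in *Rdh10* KO replicates 1 to 3. Without *Rdh10* KO replicate 3, 4 members were called decreased and 5 increased, beside 1731 and 1914 of all genes. The count of decreased members was 3 without WT replicate 2 and 3 without WT replicate 3, and that of increased members was 3 without WT replicate 1. Of all genes, the same fits called 992 and 1270 decreased and 1661 increased, against 2091 and 2360 with all 6 libraries. The loss of calls was thus not particular to the list.

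The limma calls of the members depended on its trend between level and spread across genes. Without that trend no member reached an adjusted p under 0.05, and the 11 called genes ranged from 0.0507 to 0.22. At an unadjusted p under 0.05, limma then gave 4 members lower and 5 higher, beside 2733 and 2982 of all genes. The count models edgeR (quasi-likelihood) and DESeq2 called 6 members lower and 6 higher, and 7 lower and 6 higher. Of all genes they called 2190 lower and 2608 higher, and 2259 lower and 2467 higher. Under the other 19 alternatives tried, *Dnajb11*, *Creld2*, *Sec61b*, *P4hb* and *Herpud1* passed in every one. The direction of each of the 11 called genes was the same under all 20.

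Promoters of 28 of the 35 genes were found in the RefSeq table (GRCm38.p6, 250 bases before to 50 after the start site), and 33 promoters were searched on both strands. *Atf6*, *Manf*, *Sil1*, *Erp29*, *Derl1*, *Hyou1* and *Sec61a1* had no entry. The ERSE, searched as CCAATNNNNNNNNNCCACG, was found in 9 genes, which is 27.3% of the members' promoters, whereas 0.119% of all 32851 promoters of the same length hold it. The list was chosen to include genes of the ATF6 and XBP1 branches, which act on such elements, so this excess is not independent evidence. The 9 genes are *Hspa5*, *Creld2* and *Pdia6*, which decreased, *Canx*, which increased, and *Hsp90b1*, *Calr*, *Dnajc3*, *Syvn1* and *Derl3*, which did not pass the test. The median log2 fold change of these 9 was -0.06 and that of the matched members without the element 0.04. The ERSE-II, searched as ATTGGNCCACG, was found in *Dnajb11*, which decreased, and in *Herpud1*, which increased, and is held by 0.0365% of all promoters. The element TGACGTGG, bound by ATF6 and XBP1 in vitro, was found in *Txndc5* and *Txndc11*, neither of which was called, and in 0.676% of all promoters. The 3 searches do not overlap in any of these genes' matches. The core CCACG alone is in 32.8% of all promoters. Genes that carry the same element therefore went in both directions. A match describes these letters only and is not a measurement of binding.

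The matches in the called genes are shown because they place the 2 elements beside genes that moved in opposite directions. Those of *Hsp90b1* and *Calr* are shown because these uncalled genes have a level similar to that of *Hspa5*. Each sequence is printed 5′ to 3′ on the strand of its gene, with the fixed bases of the element in capitals. For *Hspa5* (chr2:34771840-34772089, plus strand) and *Herpud1* (chr8:94386179-94386428, plus strand) all 250 bases before the start site are given. For the others the element is given with 20 bases on either side, apart from *Dnajb11*. Its window of 43 bases has 20 bases before the element and fewer after it. An element on the opposite strand of the gene reads CGTGG, then 9 bases, then ATTGG. The windows are chr15:88819500-88819558, plus strand for *Creld2*, chr12:17266471-17266529, plus strand for *Pdia6*, chr11:50325780-50325838, minus strand for *Canx*, chr16:22857832-22857874, plus strand for *Dnajb11*, chr8:84847055-84847113, minus strand for *Calr*, and chr10:86705618-86705676, minus strand and chr10:86705513-86705571, minus strand for *Hsp90b1*.
Hspa5 ERSE: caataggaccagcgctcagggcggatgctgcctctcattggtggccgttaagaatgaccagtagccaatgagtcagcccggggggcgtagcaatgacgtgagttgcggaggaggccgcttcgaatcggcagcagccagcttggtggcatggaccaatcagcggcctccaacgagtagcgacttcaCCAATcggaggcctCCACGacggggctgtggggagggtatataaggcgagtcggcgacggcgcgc
Creld2 ERSE: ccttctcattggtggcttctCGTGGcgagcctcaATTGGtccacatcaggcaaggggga
Pdia6 ERSE: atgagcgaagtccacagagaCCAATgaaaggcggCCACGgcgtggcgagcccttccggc
Canx ERSE: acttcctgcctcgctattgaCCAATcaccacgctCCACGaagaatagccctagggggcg
Hsp90b1 ERSE, distal: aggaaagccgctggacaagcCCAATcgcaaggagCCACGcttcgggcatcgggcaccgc
Hsp90b1 ERSE, proximal: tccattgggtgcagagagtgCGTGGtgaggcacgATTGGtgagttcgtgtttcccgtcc
Calr ERSE: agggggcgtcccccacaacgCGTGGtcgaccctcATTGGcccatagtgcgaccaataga
Dnajb11 ERSE-II: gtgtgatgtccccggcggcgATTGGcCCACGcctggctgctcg
Herpud1 ERSE-II: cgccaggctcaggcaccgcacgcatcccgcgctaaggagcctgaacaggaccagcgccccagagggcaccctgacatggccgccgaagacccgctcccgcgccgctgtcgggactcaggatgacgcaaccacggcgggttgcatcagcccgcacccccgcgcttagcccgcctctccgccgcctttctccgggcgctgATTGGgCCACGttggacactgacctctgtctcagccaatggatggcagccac
Counted from the RefSeq start site, with the first transcribed base as 1, the ERSE of *Hspa5* lies at -65 to -47 and that of *Canx* at -145 to -127. The ERSE-II of *Herpud1* lies at -52 to -42 and that of *Dnajb11* at 8 to 18, within the transcribed part.

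**Figure D2:**
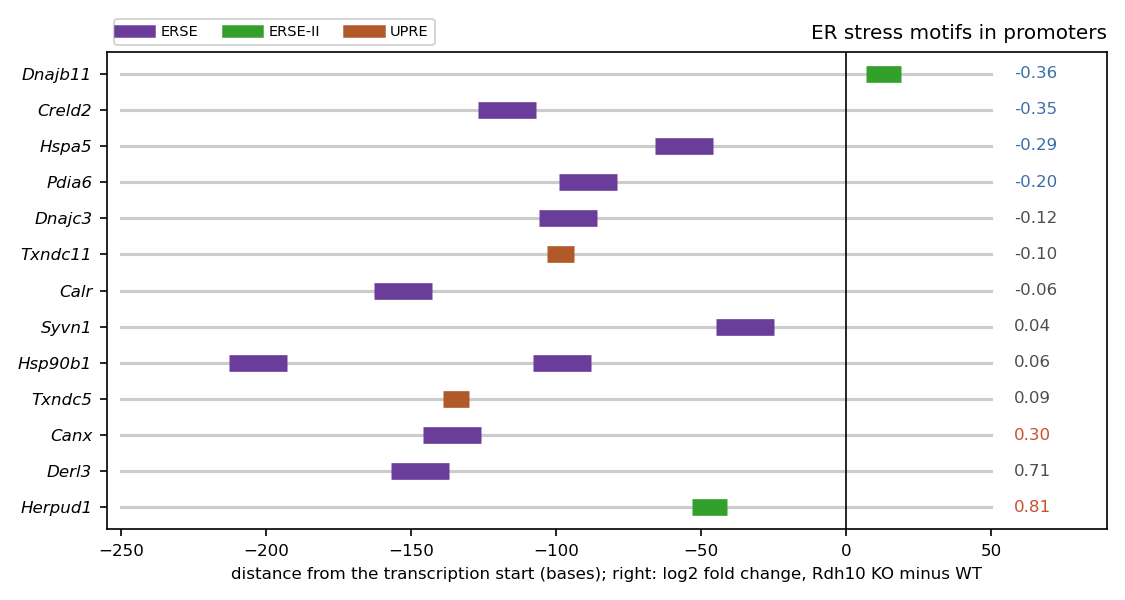
Position of the ERSE, ERSE-II and TGACGTGG (UPRE) matches (coloured bars on the x axis, bases from the RefSeq start site) in the promoters of the 13 ER genes that hold one. Numbers at the right are log2 fold changes, blue for decreased, orange for increased and grey for uncalled genes. Matches of all 3 kinds lie upstream of the start site, apart from that of *Dnajb11*, which lies just after it.

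Of the 13 ER chaperones and folding cofactors, 4 decreased, 2 increased and 7 did not pass the test. BiP (*Hspa5*, chr2:34771970-34777547) had the highest mean of normalized counts of all members in WT. It measured 20737, 22613 and 21880 in WT replicates 1 to 3 and 18505, 19024 and 15809 in *Rdh10* KO replicates 1 to 3. All mutant libraries were below all WT libraries, with *Rdh10* KO replicate 3 the lowest. The log2 fold change was -0.29 (adjusted p = 0.0146, SE 0.08), a level of 81.8% of WT. The adjusted p was 0.1 without WT replicate 2 and 0.0569 without WT replicate 3, and it ranged from 0.00175 to 0.174 over the 20 alternatives.

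*Dnajb11* (chr16:22857845-22879634) encodes ERdj3, a co-chaperone that delivers unfolded chains to BiP. It measured 1762, 1939 and 1919 in WT and 1464, 1439 and 1466 in *Rdh10* KO. The mutant libraries lay close together and below all WT libraries, and the log2 fold change of -0.36 (adjusted p = 0.00295, SE 0.07) was the lowest of the 35 members. *Creld2* (chr15:88819646-88826683), an ER protein with disulfide isomerase activity that is induced by ER stress, measured 1182, 1205 and 1189 in WT and 953, 945 and 912 in *Rdh10* KO. Its groups were as clearly apart, with a log2 fold change of -0.35 (adjusted p = 0.00474, SE 0.07). *Manf* (chr9:106838312-106891979), a small ER protein that binds BiP and is secreted under stress, measured 3826, 4004 and 4365 in WT and 3435, 3622 and 2911 in *Rdh10* KO. The log2 fold change was -0.29 (adjusted p = 0.0251, SE 0.09). The call of *Manf* was lost when *Rdh10* KO replicate 3 (log2 fold change -0.20, adjusted p = 0.0759), WT replicate 1 (0.0509), WT replicate 2 (0.0952) or WT replicate 3 (0.127) was left out, and its adjusted p ranged from 0.0069 to 0.214 over the 20 alternatives.

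*Sil1*, the nucleotide exchange factor that releases ADP from BiP and so opens it for the next round of binding, went the other way. It measured 239, 267 and 252 in WT and 326, 332 and 447 in *Rdh10* KO, so that every mutant library was above every WT library and *Rdh10* KO replicate 3, the lowest mutant library for BiP, was the highest for *Sil1*. The log2 fold change was 0.53 (adjusted p = 0.0127, SE 0.13). The adjusted p was 0.0671 without WT replicate 1 and 0.05 without WT replicate 3, in a range of 0.00232 to 0.126 over the alternatives. *Canx* (chr11:50293961-50325673) encodes calnexin, the membrane-bound lectin that retains glycoproteins until they are folded. It measured 11573, 11728 and 12458 in WT and 14465, 15891 and 13608 in *Rdh10* KO. The groups did not overlap, and the log2 fold change was 0.30 (adjusted p = 0.00894, SE 0.07). The adjusted p was 0.06 without WT replicate 1 and 0.0643 without WT replicate 2, in a range of 5.41e-04 to 0.14.

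The lumenal partner of calnexin, calreticulin (*Calr*), had a log2 fold change of -0.06 (95% interval -0.19 to 0.08). The ER HSP90 (*Hsp90b1*, GRP94) had 0.06 (-0.10 to 0.22). Neither interval reaches the estimate for *Canx* or for BiP. The difference between *Canx* and *Calr* was not tested. *Sdf2l1*, which binds BiP and ERdj3 in the lumen, measured 1245, 1231 and 1252 in WT and 1085, 1139 and 915 in *Rdh10* KO. Its groups did not overlap, but its log2 fold change of -0.25 (SE 0.09) had an adjusted p of 0.0611, and it passed in 5 of the 20 alternatives (range 0.0335 to 0.235). The other BiP partners gave *Hyou1* (GRP170, a second exchange factor of BiP) -0.08, *Dnajc3* (p58IPK) -0.12 and *Dnajb9* (ERdj4) 0.02. The prolyl isomerase *Ppib* (cyclophilin B, which acts on collagen) gave -0.11 (-0.26 to 0.03). The adjusted p of these 4 genes was 0.285 or more. Under a correction for GC content and exon length, limma called *Hyou1* lower (-0.22, adjusted p = 0.0322).

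**Figure D3:**
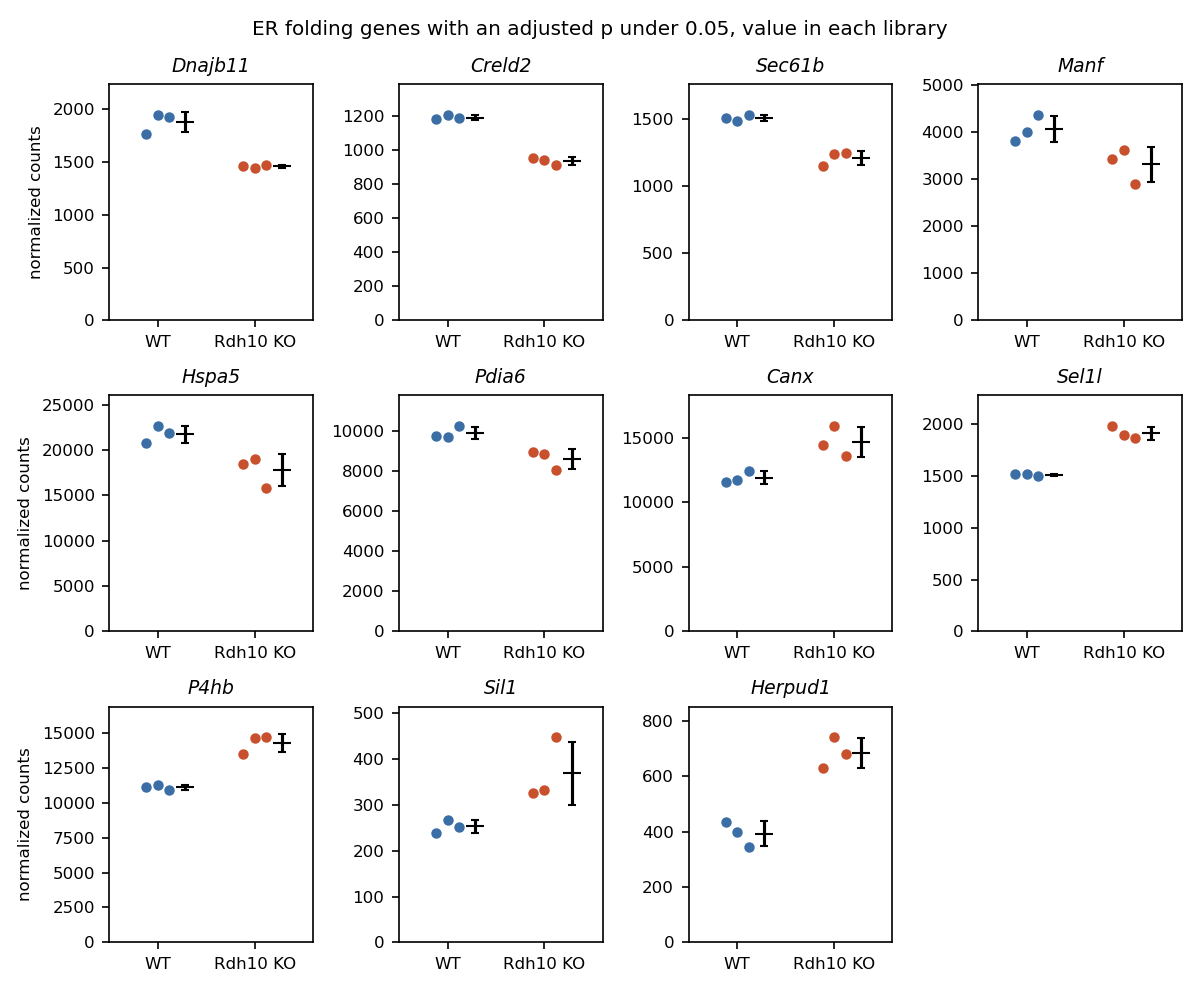
Normalized counts of the 11 called ER genes (y axis, from 0) of the 11 called ER genes, 1 panel per gene, with a point for each WT (blue) and *Rdh10* KO (orange) library and black marks for the mean and SD. In each panel the points of the groups do not overlap, and *Herpud1*, at 174% of WT, shows the widest gap in proportion to its level.

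Of the 8 disulfide isomerases and relatives, 1 decreased, 1 increased and 6 did not pass the test. *P4hb* (chr11:120560298-120573253) encodes protein disulfide isomerase itself, which is also the beta subunit of the collagen prolyl 4-hydroxylase. It measured 11139, 11246 and 10919 in WT and 13491, 14633 and 14680 in *Rdh10* KO. The WT libraries were close together and all mutant libraries were above them, with a log2 fold change of 0.36 (adjusted p = 0.00125, SE 0.06). *Pdia6* (chr12:17266545-17284770), an isomerase found in complexes with BiP, measured 9758, 9706 and 10251 in WT and 8974, 8866 and 8050 in *Rdh10* KO. The groups did not overlap, and the log2 fold change was -0.20 (adjusted p = 0.0468, SE 0.07). *Pdia6* lay at the threshold and was not called in 12 of the 20 alternatives, among them those without WT replicate 1 (adjusted p = 0.121), WT replicate 2 (0.124), WT replicate 3 (0.155), *Rdh10* KO replicate 2 (0.058) and *Rdh10* KO replicate 3 (0.0859), in a range of 0.0142 to 0.22.

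*Pdia3* (ERp57), the isomerase that works with calnexin and calreticulin, measured 11936, 12917 and 12413 in WT and 11092, 11955 and 9854 in *Rdh10* KO. Its groups overlapped by 1 pair of libraries, and its log2 fold change of -0.18 had an adjusted p of 0.109 (0.0427 without *Rdh10* KO replicate 2, range up to 0.332). *Erp44*, which retains oxidases and immature secretory proteins in the early secretory pathway, measured 973, 1036 and 1064 in WT and 1098, 1309 and 1244 in *Rdh10* KO. The groups did not overlap, the log2 fold change was 0.25 (SE 0.09), and the adjusted p was 0.0602. *Erp44* passed in 7 alternatives, which include edgeR's quasi-likelihood test (0.0412), DESeq2 (0.0397) and the fit without *Rdh10* KO replicate 1 (0.022), in a range of 0.0128 to 0.222. *Txndc11* was 665, 665 and 708 in WT and 639, 638 and 621 in *Rdh10* KO, groups that do not overlap, with a log2 fold change of -0.10 (adjusted p = 0.455). *Pdia4* (0.09), *Txndc5* (0.09) and *Erp29* (-0.05) had adjusted p of 0.386 or more. Under a correction for GC content and exon length, limma called *Erp29* (-0.22, adjusted p = 0.015) and *Txndc11* (-0.28, adjusted p = 0.0209) lower.

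Of the 8 ERAD genes, 2 increased and limma called 0 decreased, with 0 lower at an unadjusted p under 0.05 and 0 called lower by edgeR or DESeq2. *Herpud1* (chr8:94386438-94395377) encodes HERP, a membrane protein that assembles the ERAD complex around the ubiquitin ligase HRD1. It measured 435, 399.5 and 343 in WT and 631, 740 and 681 in *Rdh10* KO. The lowest mutant library was far above the highest WT library, and the mean was 174% of WT. The log2 fold change of 0.81 (adjusted p = 2.18e-04, SE 0.11) was the highest of the members. *Sel1l* (chr12:91806043-91849157), the adaptor that stabilizes HRD1, measured 1514, 1520.1 and 1496 in WT and 1979, 1893 and 1861 in *Rdh10* KO. The groups were apart by many times the WT spread, with a log2 fold change of 0.34 (adjusted p = 0.00343, SE 0.07). Under a correction for GC content and exon length it was 0.17 (adjusted p = 0.0754), in a range of 1.50e-04 to 0.133 over the alternatives, and *Sel1l* has a long exon total of 8555 bp.

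The ligase HRD1 itself (*Syvn1*) had a log2 fold change of 0.04 (95% interval -0.15 to 0.23). The mannosidase-like proteins that pick out misfolded glycoproteins gave 0.09 for *Edem1* and 0.17 for *Edem2* (-0.06 to 0.39). The derlins, which form part of the exit channel, gave -0.11 for *Derl1* and -0.07 for *Derl2*. *Derl3* was near the bottom of the range, at 15.4, 15.6 and 16.9 in WT and 15.8, 38.4 and 29.4 in *Rdh10* KO. *Rdh10* KO replicates 2 and 3 were above all WT libraries and replicate 1 was not, and the log2 fold change of 0.71 had an interval of -0.16 to 1.58 (adjusted p = 0.265). A change of *Derl3* as large as that of *Herpud1* was not detectable with this spread. The other genes in this paragraph had adjusted p of 0.312 or more.

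Of the 3 translocon genes, *Sec61b* (chr4:47474658-47483242), the small beta subunit of the Sec61 channel, decreased. It measured 1506, 1488 and 1530 in WT and 1154, 1241 and 1247 in *Rdh10* KO. The groups were clearly apart (log2 fold change -0.31, SE 0.07, adjusted p = 0.00789). The pore-forming subunit *Sec61a1* had a log2 fold change of -0.03 (95% interval -0.18 to 0.11) and *Ssr1* (TRAP alpha, which assists insertion of nascent chains) 0.05 (-0.13 to 0.23). *Sec61b* has a short exon total of 1271 bp and *Sec61a1* one of 6732 bp. Under the correction for GC content and exon length, limma gave -0.26 for *Sec61b* (adjusted p = 0.0125) and -0.15 for *Sec61a1* (adjusted p = 0.123).

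None of the 3 sensors and transcription factors was called by limma, edgeR or DESeq2, and *Atf6* alone had an unadjusted p under 0.05. *Xbp1*, the factor activated by IRE1 splicing, measured 1499.8, 1573 and 1502 in WT and 1639.7, 1645 and 1435 in *Rdh10* KO (log2 fold change 0.04, interval -0.12 to 0.21). These are sums over spliced and unspliced mRNA, which the table does not separate. *Ern1*, which encodes IRE1 alpha, measured 192, 238 and 181 in WT and 193, 183 and 241 in *Rdh10* KO, with a log2 fold change of 0.01 (-0.31 to 0.34). *Atf6* measured 551, 543 and 613 in WT and 749, 629 and 638 in *Rdh10* KO. The *Atf6* groups did not overlap, and the log2 fold change of 0.24 had an adjusted p of 0.116. Activation of ATF6 and IRE1 is by cleavage, phosphorylation and splicing, which gene-level counts do not measure.

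Levels of different genes were compared as FPKM, a depth-scaled value per kilobase of exon, computed from the recovered reads and GENCODE exon lengths. In WT the order was led by *Calr* (291 FPKM ± 11, SD, n = 3), *Hsp90b1* (271 ± 8.26) and *Hspa5* (263 ± 10.9). The order among these leading genes was not the same in every WT library. *Hspa5* exceeded *Hsp90b1* in WT replicate 2 (272.6 against 268.8), and *Hsp90b1* exceeded *Calr* in WT replicate 3 (280.7 against 278.2). *Pdia3* (202 ± 7.55) and *P4hb* (198 ± 2.82) came next and did not differ beyond their spread. In *Rdh10* KO, *Hsp90b1* (285 ± 24.7) and *Calr* (281 ± 10.6) overlapped, *P4hb* rose to the third place (256 ± 11.8) and *Hspa5* fell to the place below it (216 ± 19.0). The FPKM of *P4hb* was 79.4%, 73.5% and 73.8% of that of *Hspa5* in WT replicates 1 to 3 and 107.8%, 113.7% and 137.3% in *Rdh10* KO replicates 1 to 3. In WT, BiP transcript thus exceeded that of disulfide isomerase in each library, and in *Rdh10* KO the order was the opposite in each library. This ratio was chosen after the values were seen and was given no test. At the low end were *Ern1* (1.27 in WT and 1.29 in *Rdh10* KO) and *Derl3* (0.41 and 0.72).

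**Figure D4:**
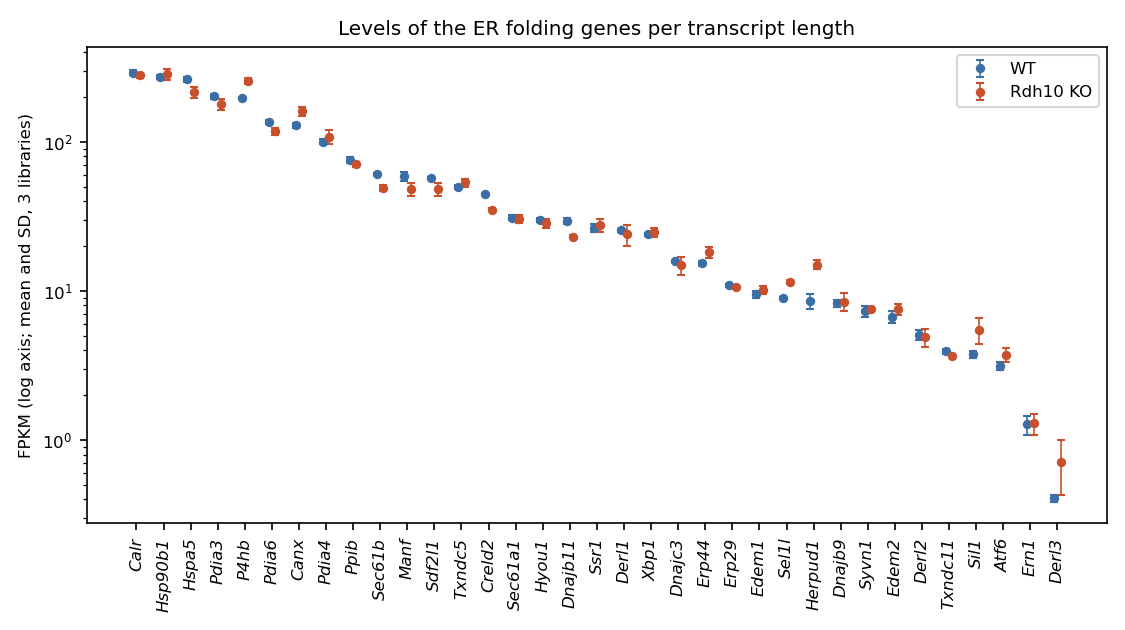
FPKM (log axis) of the 35 ER genes in WT (blue) and *Rdh10* KO (orange), as mean and SD of 3 libraries, ordered by the WT mean. The genes span from *Calr* at 291 FPKM to *Derl3* at 0.41 FPKM in WT, and the gaps between the groups are small beside that range.

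18 of the 35 genes overlap another annotated gene. Among the called genes these are *Dnajb11* (with *Gm30505*), *Manf* (with *Dcaf1*, *Rbm15b* and others), *Pdia6* (with *Atp6v1c2*), *Herpud1* (with *Gm15890*) and *Sil1*. The library kit is directional, but the strand setting of the counting is not given in the sources used here, so reads of an overlapping partner cannot be told apart for these genes. *Hspa5*, *Creld2*, *Sec61b*, *P4hb*, *Sel1l* and *Canx* have no annotated overlap.

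Another 9 lists of the same pathway, which hold none of the 35, name 113 genes, of which 112 were found and 110 could be tested in the same fit. 16 (14.5%) were called decreased and 23 (20.9%) increased, next to 9.12% and 10.3% of all genes and 21.1% and 18.9% of abundant genes. The count of decreased genes was 7 without WT replicate 2 and also 7 without WT replicate 3, 11 without WT replicate 1 and 10 without *Rdh10* KO replicate 3. Of all genes, the same fits called 992, 1270, 1209 and 1731 decreased, against 2091 with all 6 libraries. In the PERK branch, 5 of 6 genes increased, and the log2 fold change of all 6 was positive. PERK slows translation by phosphorylating eIF2 alpha and thereby favours translation of ATF4. The highest and lowest changes of its called genes were those of *Trib3*, a pseudokinase induced by ATF4 and CHOP (38.1 to 253 normalized counts, log2 fold change 2.74, SE 0.20, adjusted p = 1.99e-06), and of *Ppp1r15b*, a subunit of the eIF2 alpha phosphatase (0.24, SE 0.08, adjusted p = 0.0396). The other 3, named after their values were seen, were *Ddit3*, which encodes CHOP (log2 fold change 1.85), *Eif2ak3*, which encodes PERK (0.60), and *Atf4* (0.32). *Trib3*, *Ddit3* and *Eif2ak3* passed in all 20 alternatives. *Ppp1r15b* and *Atf4* did not pass without any of several single libraries (smallest log2 fold change 0.19 and 0.22, highest adjusted p 0.158 and 0.106), in each case including every WT replicate. ATF4 and CHOP also respond to inputs other than PERK, and the phosphorylation of PERK was not measured.

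Among regulators of the ATF6 and XBP1 branches and related factors, 2 of 7 tested genes decreased and 3 increased. The lowest was *Atf6b*, a relative of ATF6 (log2 fold change -0.26, adjusted p = 0.0422), and the highest *Creb3l1*, an ATF6-like membrane-bound factor that activates collagen genes (1.25, adjusted p = 0.0139, 49.3 to 116 normalized counts). Both KDEL receptor genes that passed were higher, *Kdelr3* (0.77, adjusted p = 0.00371) and *Kdelr1* (0.32, adjusted p = 0.00841), of 3 measured. These receptors return escaped ER proteins from the Golgi.

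Of 14 other oxidoreductases tested, 2 decreased and 3 increased. *Ero1l*, the oxidase that recharges disulfide isomerase, was the highest and had 674, 634 and 632 normalized counts in WT and 2304, 3982 and 3326 in *Rdh10* KO. No WT library came near a mutant library (log2 fold change 2.27, SE 0.14, adjusted p = 5.65e-07). *Gpx8*, a peroxidase of the ER, was the lowest (-0.29, adjusted p = 0.0359). Of 17 other chaperones and prolyl isomerases, *Fkbp9* (0.39, adjusted p = 7.23e-04) and the J-domain protein *Dnajc1* (0.32, adjusted p = 0.00709) increased. Of 10 genes of glycan trimming and lectins, *Uggt2*, a folding sensor of glycoproteins (0.39, adjusted p = 0.0211), and *Lman1*, a cargo receptor out of the ER (0.30, adjusted p = 0.00487), increased.

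Of 20 other ERAD genes, 4 decreased and 2 increased, from the ubiquitin-conjugating enzyme *Ube2g2* (-0.47, adjusted p = 0.00202) to the J-domain protein *Dnajb14* (0.56, adjusted p = 0.00315). Of 21 genes of targeting, translocon and signal peptidase, 5 decreased and 2 increased, from *Srp9* of the signal recognition particle (-0.83, adjusted p = 0.00762) to *Tram2*, a translocon partner used in collagen synthesis (0.62, adjusted p = 6.85e-04). Of 12 oligosaccharyltransferase genes, 3 decreased and 2 increased. The increased ones were the catalytic subunits *Stt3a* (0.47, adjusted p = 6.81e-04) and *Stt3b* (0.31), and the decreased ones the small subunits *Tmem258* (-0.35, adjusted p = 0.0101), *Dad1* (-0.34) and *Ostc* (-0.30). *Stt3b*, *Dad1* and *Ostc* were named after their values were seen. Over all genes, the median exon length was 6414 bp in those called increased and 3312 bp in those called decreased. The part of gene length in the contrast of subunits was not tested.

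Several of these calls were lost when a single library was left out. This applied to *Gpx8* (any WT replicate or *Rdh10* KO replicate 3, adjusted p up to 0.147), *Uggt2* (WT replicates 1 or 2 or *Rdh10* KO replicate 3, up to 0.109) and *Srp9* (WT replicate 2, 0.0553). It also applied to *Tmem258* (WT replicates 2 or 3, up to 0.0603), *Dad1* (WT replicates 1 or 3, up to 0.0883) and *Stt3b* (WT replicates 1 or 2, up to 0.0613). *Ostc* was lost without WT replicates 2 or 3 or *Rdh10* KO replicates 1 or 3 (up to 0.149), *Atf6b* without any library except *Rdh10* KO replicate 1 (up to 0.159), and *Creb3l1* without WT replicates 2 or 3 or *Rdh10* KO replicate 3 (up to 0.0874). Under the correction for GC content and length, *Dnajc1*, *Lman1*, *Uggt2*, *Gpx8*, *Dnajb14*, *Atf6b* and *Ppp1r15b* also lost their calls.

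**Figure D5:**
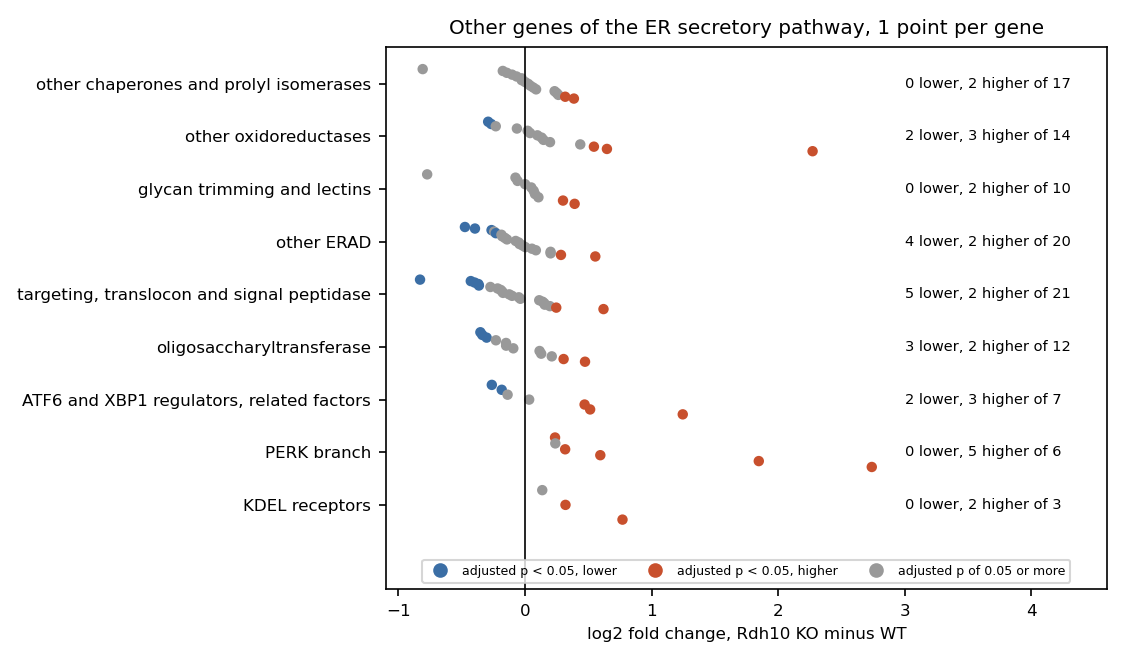
Log2 fold change (*Rdh10* KO minus WT, x axis) of the 110 other pathway genes tested, 1 point per gene, by list, with blue for genes called decreased, orange for increased and grey for the rest. The PERK branch has all points to the right of 0, whereas the targeting, translocon and signal peptidase list has 5 decreased genes of 21.

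Markers of the cell types that such a dissection can hold differed between the groups. The summed level of 5 endothelial markers was 2522 to 2981 normalized counts in WT and 3893 to 4051 in *Rdh10* KO, with *Pecam1*, *Kdr*, *Cdh5* and *Tie1* called higher. 8 markers of craniofacial mesenchyme summed to 12839 to 13859 in WT and 15306 to 16821 in *Rdh10* KO, with *Col1a1*, *Col1a2* and *Tfap2a* higher. The mean of *Col1a1* went from 956 to 1720 and that of *Col1a2* from 3768 to 4805. The other 5 did not pass the test, with log2 fold changes of 0.11 (*Twist1*), 0.09 (*Prrx1*), -0.08 (*Prrx2*), 0.04 (*Pdgfra*) and 0.29 (*Dlx5*). 8 markers of optic and forebrain neuroepithelium summed to 16672 to 17739 in WT and 13362 to 17400 in *Rdh10* KO, with *Lhx2* and *Nes* lower and *Rax* and *Six3* higher. Of the 6 markers of embryonic blood limma called none, with 0 at an unadjusted p under 0.05 and sums of 97703 to 131251 in WT and 49483 to 151667 in *Rdh10* KO. The sums of 6 surface ectoderm markers overlapped (5091 to 5582 and 5096 to 6064, *Cdh1* higher). The 6 heart markers were low, with sums of 68.6 to 102 and 148 to 294. *Actc1* (52.2, 66.8 and 35.7 in WT and 87.4, 121 and 248 in *Rdh10* KO) made up most of these sums and was the 1 called. The other heart markers did not pass the test. *Myh6* (log2 fold change 1.16), *Myh7* (0.61) and *Nkx2-5* (4.22, at 0 in all WT libraries) were higher in every mutant library than in any WT library. *Tnnt2* (-1.73) and *Nppa* (-1.37) had negative values, and *Nppa* had means of only 0.97 in WT and 0.39 in *Rdh10* KO. The 6 measured of 7 placenta and yolk sac markers summed to 32.0 to 43.0 and 69.4 to 97.4, where *Prl8a2* and *Prl3d1* were at 0 in all WT libraries and were called higher. The calls of *Rax*, *Six3*, *Lhx2*, *Nes*, *Cdh5*, *Tie1*, *Cdh1* and *Prl3d1* were each lost when one or more of the single libraries were left out, and those of *Pecam1*, *Kdr* and *Tfap2a* passed in all 20 alternatives. Under the correction for GC content and length, *Col1a2* had a log2 fold change of 0.08 (highest adjusted p 0.399) and lost its call, as did *Rax*, *Six3* and *Tie1*. No marker was at 0 in all 6 libraries. The part of these differences in the changes of the ER genes was not tested.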

How the data were processed

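RNA-seq of 6 libraries of E10 mouse eye tissue was used, 3 WT and 3 *Rdh10* KO, each from a pool of 3 embryos, grouped by their labels. According to the methods and the submitters' processing notes, the authors aligned reads to mm10 with TopHat, estimated transcript abundance by Expectation–Maximization and normalized it as FPKM. The deposited signal values are instead whole reads per gene divided by 1 median-of-ratios size factor per library, since 100% of values came out as whole reads (tolerance 0.006 normalized counts) in all 6 libraries. They are therefore called normalized counts, and FPKM given here were computed from the recovered reads and GENCODE release 21 exon lengths (GRCm38). The table holds 26437 genes and 1 line that names no gene, which was left out. Identifiers of 26288 genes (99.44%) were found in the annotation.

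For the test, limma 3.58.1 (lmFit, eBayes with trend, R 4.3.3) was fitted to log2(value + 0.1) of genes with a mean above 0.5, with Benjamini–Hochberg adjustment over all 22921 genes tested. Fold changes are on this scale, on which those of low genes depend on the added 0.1 and can differ from the ratio of the group means. Alternatives were other pseudocounts (1 and 0.01), filters and scalings, limma without trend, edgeR 4.0.16 and DESeq2 1.42.0 on the recovered reads, a replicate block, a correction for GC content and length, and leaving out each library. For the other pathway genes, the markers and *Rdh10*, these alternatives were chosen after seeing the data. The tests were tried on simulated data. Tables and exact tests used Python 3.11.15 with pandas 2.3.3, numpy 2.4.6 and scipy 1.17.1. The members and all lists were chosen with earlier results of these data known. Named genes are all 35 members, *Rdh10*, up to 4 called genes of each pathway list or otherwise the called genes with the lowest and highest log2 fold change, called markers, and members with a promoter match. Uncalled markers were named after their values were seen. The depth of 16392777 to 27101025 reads per library makes 3 reads equal to 2.15 to 3.53 normalized counts. P-values measure the spread between pools.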

Additional observations from a re-analysis of the deposited data

How the results depend on the processing

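The number of ER genes called decreased (6) and increased (5) went to 0 and 0 without limma's intensity trend and with the log2 limit of 0.85, and to 3 to 7 and 3 to 6 when a library was left out. For all genes (2091 decreased, 2360 increased) the counts were 197 and 448 without the trend (2733 and 2982 at an unadjusted p under 0.05), 203 and 552 with the limit, and 992 to 2068 and 1491 to 2139 without a library. For the other pathway genes (16 and 23) they were 0 and 4 without the trend and 7 to 16 and 17 to 25 without a library. The cause of the loss without the trend was not tested. The correction for GC content and length turned the median log2 fold change of the ER genes from 0.01 to -0.11, with and without the replicate block, and moved that of all genes from 0.0036 to -0.0323 and that of genes with a mean of at least 500 from -0.029 to -0.089. Without the block it gave 9 decreased and 5 increased ER genes, of which 6 and 4 were called before correction, and 2948 decreased and 1954 increased genes overall. The ER genes called only after it were *Hyou1*, *Txndc11* and *Erp29*, decreased, and *Erp44*, increased. With the block it gave 5 and 5 ER genes, and 2366 and 1601 overall. Median scaling gave 2556 and 2079 overall. The labels state no litter or day shared by same-numbered libraries. Deviations of same-numbered libraries from their group means had correlations of -0.03, -0.03 and -0.07 over 15272 genes. With 3 libraries a group, such correlations cannot tell whether a litter or day was shared. With the replicate block, 4 ER genes were decreased and 5 increased, 10 other pathway genes decreased, and 1387 of all genes decreased. *Manf* (adjusted p = 0.0826) and *Pdia6* (0.131) lost their calls with the block. EdgeR's quasi-likelihood test called 6 ER genes decreased and 6 increased, its likelihood ratio test 5 and 6, and DESeq2 7 and 6. For all genes these counts were 2190 and 2608, 2240 and 2738, and 2259 and 2467. *Rdh10* passed in all 20 alternatives. At 3 libraries a group, a change of *Derl3* as large as that of *Herpud1* was not detectable.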
